A study of Mus musculus with 10 samples.

Results

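Glucose uptake and glycolysis were followed through 10 genes in every line of a set of male mouse embryonic stem cell (ESC) lines: the glucose transporter genes Slc2a1 and Slc2a3, the enzyme genes Hk2, Pfkp, Aldoa, Tpi1, Eno1, Pkm and Ldha, and the kinase gene Pdk1. They were chosen by name and not by a threshold on their values, but with earlier results of these data known. They are 10 of 35427 genes in the data, and all 10 passed the minimum of 20 reads in at least 1 line. RNA was sequenced from 4 Tdg-/- lines, 3 Tdg+/- lines and 3 wt lines (labelled Tdg+/+), 1 library per line. The lines carry a C57BL/6 label, received no treatment, and were derived from blastocysts of matings between Tdg+/- animals that were timed together. They were first kept on feeder cells, which were removed for some passages before RNA was taken, and were then grown on gelatin in a serum-free medium with LIF and inhibitors. Each genotype is therefore a small set of derived lines, which mating gave which line is not labelled, and p-values measure only the spread between lines. TDG (thymine DNA glycosylase) removes formylated and carboxylated cytosine from DNA, so the question put to these genes was whether their RNA differed with the number of wild-type Tdg alleles.

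Glycolysis splits glucose into pyruvate in the cytosol and yields ATP without oxygen. Transporters of the GLUT family let glucose in, hexokinase traps it by phosphorylation, phosphofructokinase commits it to breakdown, and aldolase, triose phosphate isomerase, enolase and pyruvate kinase carry it to pyruvate. Lactate dehydrogenase turns pyruvate into lactate, and pyruvate dehydrogenase kinases hold pyruvate back from the mitochondria. Pluripotent stem cells are known for a high glycolytic rate, and many of these genes are known targets of the hypoxia-inducible factors and of MYC.

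The libraries held 31095285 to 39916039 reads in genes (median 36008472). The level of Tdg itself was 7.75, 10.6, 10.3 and 8.49 normalized CPM (read counts scaled to the size of the library) in Tdg-/- lines 1 to 4, 40.3, 41.9 and 45.9 CPM in Tdg+/- lines 1 to 3, and 86.4, 91.1 and 93.1 CPM in wt lines 1 to 3, in the order of the labels. Naive ESC markers (10 of 10 detected) summed to 3551 to 3908 CPM in Tdg-/- lines, 3796 to 4241 CPM in Tdg+/- lines and 3758 to 4134 CPM in wt lines. Markers of primed epiblast (5 of 6 detected, Fgf5 below the minimum) summed to 96.3 to 130 CPM in Tdg-/- lines, 88.6 to 130 CPM in Tdg+/- lines and 127 to 150 CPM in wt lines. Feeder fibroblast markers (9 of 9 detected) summed to 12.7 to 36.7 CPM in Tdg-/- lines, 5.86 to 51.9 CPM in Tdg+/- lines and 24.7 to 47.7 CPM in wt lines, and primitive endoderm markers (3 of 7 detected) stayed at or under 3.90 CPM, with Gata6 and Sox17 below the minimum. Tdg-/- line 1 stood apart from Tdg-/- lines 2 to 4. Lines 2 to 4 had normalization factors (TMM) of 0.913 to 0.938, against 1.01 to 1.05 in the other 7 lines, and their 10 most abundant genes took 9.03% to 9.36% of reads, against 7.94% to 8.45%. Slc2a1 and Eno1 lie on chromosome 4, Slc2a3, Hk2 and Tpi1 on 6, Aldoa and Ldha on 7, Pdk1 on 2, Pkm on 9 and Pfkp on 13. No member lies on chromosome 11 or 16, whose genes differed as a block between some lines (median log2 fold change 0.42 for chromosome 11 in Tdg+/- over wt).

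None of the 10 genes passed the threshold of an adjusted p under 0.05 (edgeR's quasi-likelihood test, Benjamini-Hochberg over all genes tested) in any comparison. A gene past it is referred to as called. In Tdg-/- over wt lines 0.0718% of all genes passed, in Tdg+/- over wt lines 0.0288%, and in the trend per Tdg allele lost over all 10 lines 0.0354%. The share was 9.03% in Tdg-/- over Tdg+/- lines, against 0 of 10 members. At an unadjusted p under 0.05 the members gave 0, 0, 1 and 1 calls in Tdg-/- over wt, Tdg+/- over wt, Tdg-/- over Tdg+/- and the trend, while 15.9%, 17.0%, 35.2% and 14.0% of all genes were below it. DESeq2 called 0, 0, 1 and 0 members in the same order, against 0.668%, 5.36%, 24.0% and 0.362% of all genes. The median log2 fold change of the members was 0.060 in Tdg-/- over wt (all genes -0.011), 0.021 in Tdg+/- over wt (all genes -0.016), -0.072 in Tdg-/- over Tdg+/- (all genes -0.017) and 0.015 per allele lost (all genes -0.019). The comparisons share lines, so they are not independent of each other.

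**Figure D1:**
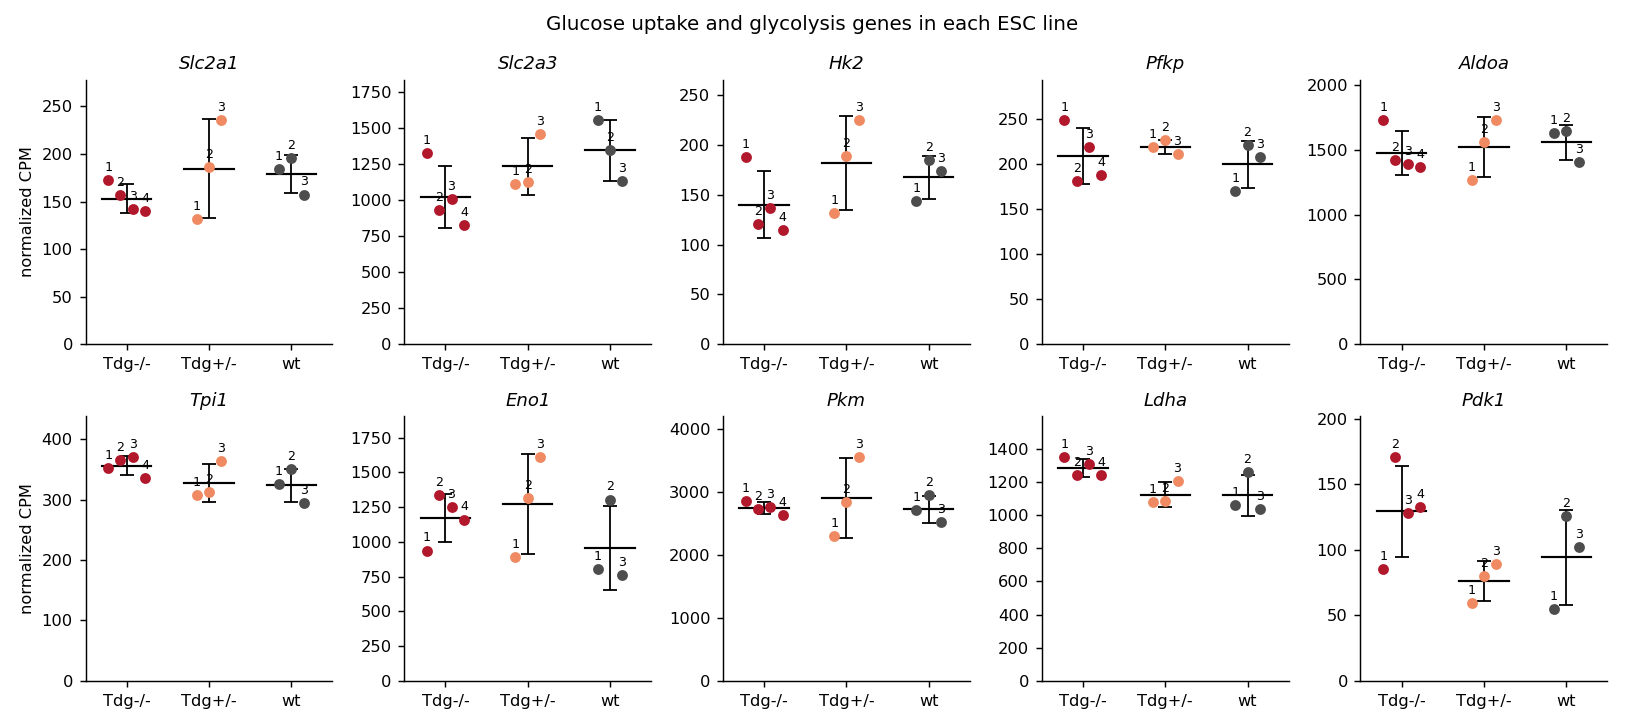
Normalized CPM of each gene (y axis, from 0) in the lines of each genotype (x axis, Tdg-/-, Tdg+/- and wt); points are lines with their numbers, and bars are the mean and SD. For each gene the Tdg-/- and wt lines overlap, and for Ldha the 4 Tdg-/- lines lie above the 3 Tdg+/- lines.

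Of the transporters, Slc2a3 was the more abundant and was the gene of the 10 with the lowest values in Tdg-/- lines relative to wt. Slc2a3 encodes GLUT3, a high-affinity glucose transporter. Its level was 1326, 933, 1007 and 828 CPM in Tdg-/- lines 1 to 4, 1112, 1129 and 1462 CPM in Tdg+/- lines, and 1556, 1347 and 1132 CPM in wt lines. Tdg-/- lines 2 to 4 lay below every line of the other genotypes, and Tdg-/- line 1 lay among them. The log2 fold change was -0.37 in Tdg-/- over wt (SE 0.17, unadjusted p = 0.0530, adjusted p = 0.318 by edgeR), -0.13 in Tdg+/- over wt (adjusted p = 0.686 by edgeR) and -0.27 in Tdg-/- over Tdg+/- (adjusted p = 0.289 by edgeR). The trend was -0.20 per allele lost (SE 0.087, unadjusted p = 0.0392, adjusted p = 0.349 by edgeR). Slc2a3 thus had the one unadjusted call of the trend and no adjusted one.

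Slc2a1 encodes GLUT1, the transporter of basal glucose uptake in many cell types. Its level was 173, 157, 142 and 140 CPM in Tdg-/- lines, 132, 186 and 236 CPM in Tdg+/- lines, and 184, 196 and 157 CPM in wt lines. Tdg+/- lines 1 and 3 were the lowest and the highest of all 10 lines, so the Tdg+/- lines enclosed the other genotypes. The log2 fold change was -0.20 in Tdg-/- over wt (SE 0.12, adjusted p = 0.387 by edgeR), 0.036 in Tdg+/- over wt and -0.27 in Tdg-/- over Tdg+/- (adjusted p = 0.299 by edgeR), the last -0.46 without Tdg+/- line 1 and -0.056 without Tdg+/- line 3.

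Hk2 encodes the hexokinase that binds the outer mitochondrial membrane. It had 188, 121, 137 and 115 CPM in Tdg-/- lines, 132, 190 and 225 CPM in Tdg+/- lines, and 144, 185 and 174 CPM in wt lines. Tdg-/- line 4 was the lowest and Tdg+/- line 3 the highest, and Tdg-/- lines 2 to 4 were below all wt lines while Tdg-/- line 1 was above them. The log2 fold change was -0.24 in Tdg-/- over wt (SE 0.18, adjusted p = 0.457 by edgeR), 0.11 in Tdg+/- over wt and -0.38 in Tdg-/- over Tdg+/- (SE 0.21, adjusted p = 0.227 by edgeR). In values per transcript length (TPM), Hk2 was at 21.5 to 25.2 TPM in Tdg-/- lines 2 to 4, and at 34.9 to 55.8 TPM in the other 7 lines. TPM were not scaled by the normalization factors. In CPM these lines overlapped, with 137 CPM in Tdg-/- line 3 and 132 CPM in Tdg+/- line 1. Slc2a1 had such a gap in TPM too, with 35.7 to 38.7 TPM against 41.8 to 72.2 TPM. Slc2a3 lost its gap in TPM, with 304 TPM in wt line 3 and 313 TPM in Tdg-/- line 2. The window around the RefSeq start of Hk2 is shown because it holds the letters of the core of the hypoxia response element, ACGTG or GCGTG. It is 250 bases before to 50 bases after the start (GRCm38.p6, chr6:82774405-82774704, minus strand), printed 5′ to 3′ in the gene's direction with ACGTG and GCGTG on either strand in capitals (here ACGTG, at 2 places).
Hk2: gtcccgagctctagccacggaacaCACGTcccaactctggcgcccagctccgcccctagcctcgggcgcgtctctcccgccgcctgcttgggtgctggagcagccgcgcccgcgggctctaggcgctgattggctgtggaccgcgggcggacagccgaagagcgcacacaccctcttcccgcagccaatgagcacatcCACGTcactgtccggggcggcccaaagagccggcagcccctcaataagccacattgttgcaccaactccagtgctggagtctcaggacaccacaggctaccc

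Pfkp, Aldoa and Tpi1 encode the platelet-type phosphofructokinase, aldolase A and triose phosphate isomerase. Pfkp had 249, 182, 219 and 188 CPM in Tdg-/- lines, 219, 227 and 211.5 CPM in Tdg+/- lines, and 171, 221 and 208 CPM in wt lines. Aldoa had 1730, 1424, 1389 and 1367 CPM in Tdg-/- lines, 1269, 1563 and 1728 CPM in Tdg+/- lines, and 1629, 1645 and 1404 CPM in wt lines. Tdg-/- line 1 was the highest of all lines for both. Tpi1 had 352, 366, 371 and 336 CPM in Tdg-/- lines, 307, 312 and 363 CPM in Tdg+/- lines, and 326, 350.1 and 295 CPM in wt lines. The genotypes overlapped for all 3 genes. Their log2 fold changes in Tdg-/- over wt were 0.090 for Pfkp, -0.056 for Aldoa and 0.16 for Tpi1, with SE of 0.14, 0.12 and 0.11, and none passed (adjusted p = 0.734, 0.806 and 0.427 by edgeR). A second gene entry with the symbol Aldoa held 13 to 35 reads per line and was not used.

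Eno1, enolase 1, was the gene whose reads were hardest to assign. It had 938, 1338, 1251 and 1161 CPM in Tdg-/- lines, 894.5, 1315 and 1612 CPM in Tdg+/- lines, and 805, 1305 and 764 CPM in wt lines. Tdg-/- line 1, Tdg+/- line 1 and wt lines 1 and 3 were low, so low lines occurred in each genotype. Its log2 fold change was 0.32 in Tdg-/- over wt (SE 0.21, adjusted p = 0.417, and 0.60 without wt line 2 or 0.18 without wt line 3), 0.40 in Tdg+/- over wt (SE 0.25, adjusted p = 0.461) and -0.12 in Tdg-/- over Tdg+/- (adjusted p = 0.685), all by edgeR. Eno1 shares sequence with 5 other annotated genes, here called its copies, and Salmon divides reads between them. Of the 31-base words of Eno1b, which held most of their reads, 81.8% occur in Eno1 transcripts, of those of the pseudogene Gm4735 89.5%, and of those of the other 3 pseudogenes 25.0% to 27.9%. The copies took 56.0%, 30.0%, 31.5% and 31.3% of the summed reads in Tdg-/- lines, 29.3%, 30.0% and 27.0% in Tdg+/- lines, and 54.0%, 33.5% and 59.0% in wt lines. The 3 lines with over 50% in the copies, Tdg-/- line 1 and wt lines 1 and 3, were among the 4 lines where Eno1 itself was low. The sum of Eno1 and its copies was 2133, 1913, 1826 and 1689 CPM in Tdg-/- lines, 1265, 1879 and 2210 CPM in Tdg+/- lines, and 1748, 1962 and 1861 CPM in wt lines. The sum spanned 1.75-fold from the lowest to the highest line, against 2.11-fold for Eno1 alone, and its log2 fold change was 0.048 in Tdg-/- over wt (adjusted p = 0.826 by edgeR), -0.067 in Tdg+/- over wt (adjusted p = 0.882 by edgeR) and 0.082 in Tdg-/- over Tdg+/- (adjusted p = 0.761 by edgeR). The direction of Eno1 in the last 2 comparisons therefore turns with how its copies are counted.

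**Figure D2:**
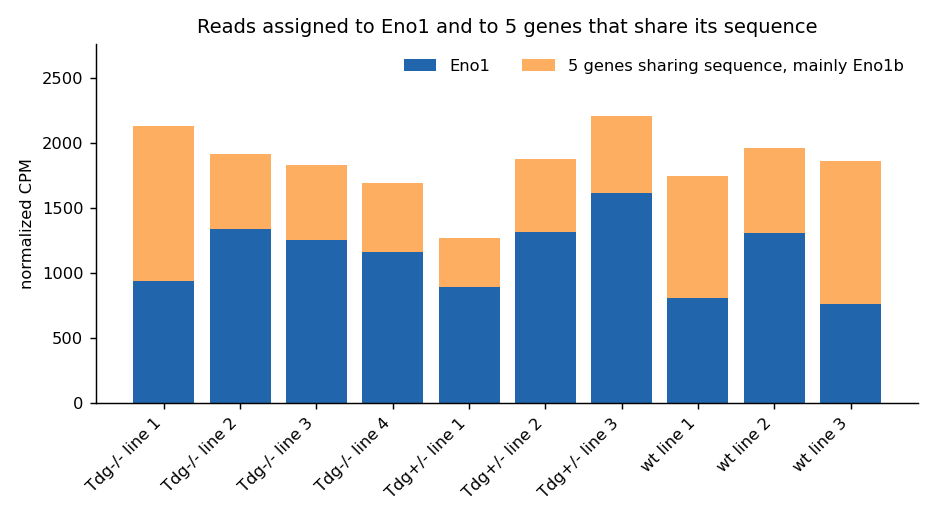
Normalized CPM (y axis, from 0) assigned to Eno1 and, stacked on it, to the 5 genes that share its sequence (its copies, mainly Eno1b), in each of the 10 lines (x axis). The copies take 27.0% to 59.0% of the stack, and over 50% in Tdg-/- line 1, wt line 1 and wt line 3.

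Pkm, the muscle pyruvate kinase gene that is also the form of most proliferating cells, was the most abundant member. It had 2855, 2722, 2754 and 2635 CPM in Tdg-/- lines, 2296, 2845 and 3559 CPM in Tdg+/- lines, and 2707, 2949 and 2525 CPM in wt lines. The Tdg+/- lines enclosed all others. Its mean was 2742 ± 91.1 CPM in Tdg-/- lines (SD, n = 4), 2900 ± 633 CPM in Tdg+/- lines (SD, n = 3) and 2727 ± 213 CPM in wt lines (SD, n = 3), and the log2 fold change lay between -0.080 and 0.079 in the 3 comparisons of genotypes. Pkm is spliced with one of a pair of mutually exclusive exons of 167 bases, the upstream one giving the M1 form and the downstream one the M2 form. They are shown because the reads of the transcripts that hold them could be compared between lines. Pkm-202 holds the upstream exon (GRCm38, chr9:59675029-59675195, plus strand) and Pkm-201 the downstream exon (chr9:59675568-59675734), both printed 5′ to 3′ with the positions that differ in capitals.
Pkm upstream exon: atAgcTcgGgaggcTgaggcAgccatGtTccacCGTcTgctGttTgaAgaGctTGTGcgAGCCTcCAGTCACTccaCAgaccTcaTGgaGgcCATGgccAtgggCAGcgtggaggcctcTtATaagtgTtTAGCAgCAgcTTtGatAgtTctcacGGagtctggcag
Pkm downstream exon: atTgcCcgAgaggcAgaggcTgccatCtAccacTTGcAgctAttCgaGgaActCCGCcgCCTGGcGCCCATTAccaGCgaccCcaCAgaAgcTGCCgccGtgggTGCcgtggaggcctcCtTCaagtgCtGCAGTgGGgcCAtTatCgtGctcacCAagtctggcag
The 2 exons have the same base at 103 of 167 positions (61.7%).

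Of the reads given to Pkm-201 and Pkm-202, the downstream exon's transcript took 52.5%, 52.4%, 49.4% and 50.7% in Tdg-/- lines, 59.5%, 56.8% and 62.1% in Tdg+/- lines, and 55.6%, 51.4% and 44.5% in wt lines. The 3 Tdg+/- lines were above all Tdg-/- and all wt lines. The share in Tdg-/- minus Tdg+/- lines differed by -8.23 percentage points (51.25 ± 1.51% against 59.5 ± 2.61%, SD, n = 4 and 3), with an exact two-sided permutation p of 0.0286, the smallest this design allows, and an adjusted p of 0.18 over the 9 share tests made. It was 8.98 percentage points higher in Tdg+/- than in wt lines (59.5 ± 2.61% against 50.5 ± 5.59%, SD, n = 3 each). The exact permutation p was 0.1, also the smallest possible, and it did not pass adjustment over the 9 share tests. Tdg-/- and wt lines differed by 0.75 percentage points (exact permutation p = 0.83, n = 4 and 3). These shares were chosen for testing after values had been seen, none passes adjustment, and the 2 transcripts differ in their annotated ends too, so this is not a measure of the exons alone. The other 9 Pkm transcripts hold neither exon and took 9.33% to 12.4% of its reads.

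**Figure D3:**
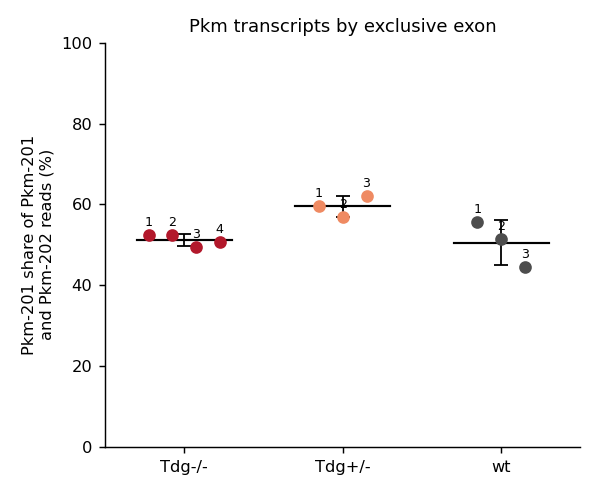
Share of Pkm-201, with the downstream exon, in the reads of Pkm-201 and Pkm-202 (y axis, 0 to 100%), by genotype (x axis, Tdg-/-, Tdg+/- and wt); points are lines, and bars the mean and SD. The Tdg+/- lines lie at 56.8% to 62.1%, and all other lines at 44.5% to 55.6%.

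Ldha, lactate dehydrogenase A, was the member with the least spread between lines of a genotype and the only one whose lines did not overlap in a comparison. It had 1351, 1241, 1308 and 1240 CPM in Tdg-/- lines, 1076, 1082 and 1208 CPM in Tdg+/- lines, and 1061, 1257 and 1036 CPM in wt lines. Every Tdg-/- line was above every Tdg+/- line, and wt line 2 lay between Tdg-/- lines. The lines did not overlap for 24.5% of all genes in Tdg-/- over Tdg+/-, with Tdg-/- higher for 11.4%, so 1 of 10 is near the background. In Tdg-/- over wt no member had lines that did not overlap, against 9.80% of all genes. Overlap was judged in CPM. In TPM Ldha overlapped too, at 995 to 1614.5 TPM in Tdg-/- lines and 1168 to 1351 TPM in Tdg+/- lines. The log2 fold change was 0.20 in Tdg-/- over Tdg+/- (SE 0.11, adjusted p = 0.206 by edgeR), 0.22 in Tdg-/- over wt (SE 0.11, unadjusted p = 0.0785, adjusted p = 0.342 by edgeR) and -0.0044 in Tdg+/- over wt (adjusted p = 0.987 by edgeR). The window at its first RefSeq start (GRCm38.p6, chr7:46845554-46845853, plus strand) is shown because it was the only member window with CACGTG, the letters of the E-box that MYC binds. ACGTG and GCGTG on either strand are in capitals, and each CACGTG holds ACGTG on both strands.
Ldha: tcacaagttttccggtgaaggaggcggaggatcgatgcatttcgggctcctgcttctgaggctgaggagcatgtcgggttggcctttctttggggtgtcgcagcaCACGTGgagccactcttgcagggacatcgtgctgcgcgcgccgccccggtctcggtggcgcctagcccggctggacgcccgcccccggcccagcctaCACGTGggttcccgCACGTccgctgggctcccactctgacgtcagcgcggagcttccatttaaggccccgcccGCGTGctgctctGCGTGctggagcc

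Pdk1, a pyruvate dehydrogenase kinase, inactivates pyruvate dehydrogenase and is a known hypoxia-induced gene. It was the member with the largest fold changes in Tdg-/- over Tdg+/- and in Tdg-/- over wt, and with the largest spread within genotypes. It had 85.7, 171, 128 and 133 CPM in Tdg-/- lines, 59.4, 80.2 and 89.2 CPM in Tdg+/- lines, and 54.8, 126 and 102 CPM in wt lines. Tdg-/- lines 2 to 4 lay above every line of the other genotypes, and Tdg-/- line 1 was below Tdg+/- line 3. In TPM, however, wt line 2 (64.7 TPM) was above Tdg-/- lines 2 to 4 (48.7 to 64.1 TPM). The mean was 129 ± 35.0 CPM in Tdg-/- lines (SD, n = 4), 76.3 ± 15.3 CPM in Tdg+/- lines (SD, n = 3) and 94.2 ± 36.2 CPM in wt lines (SD, n = 3). The log2 fold change was 0.76 in Tdg-/- over Tdg+/- (SE 0.22, unadjusted p = 0.00680, adjusted p = 0.0563 by edgeR), just outside the threshold. It was 0.48 in Tdg-/- over wt (SE 0.29, adjusted p = 0.391 by edgeR, and 0.21 without wt line 1 or 0.75 without wt line 2), -0.31 in Tdg+/- over wt (adjusted p = 0.612 by edgeR) and 0.25 per allele lost (adjusted p = 0.432 by edgeR). The call in Tdg-/- over Tdg+/- turned with the settings: the adjusted p was 0.00613 by DESeq2, 0.0360 by edgeR with no filter on low counts (6.66% of all genes called) and 0.0493 by edgeR with a minimum mean of 1 CPM (13.5% of all genes called). The window at its first RefSeq start (GRCm38.p6, chr2:71872974-71873273, plus strand) is shown for the same letters, with GCGTG on either strand in capitals at 2 places.
Pdk1: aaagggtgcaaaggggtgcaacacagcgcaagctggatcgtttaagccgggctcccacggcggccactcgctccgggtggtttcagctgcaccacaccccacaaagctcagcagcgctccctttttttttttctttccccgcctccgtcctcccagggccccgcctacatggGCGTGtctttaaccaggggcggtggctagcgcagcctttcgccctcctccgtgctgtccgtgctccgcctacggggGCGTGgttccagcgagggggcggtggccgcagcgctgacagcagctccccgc

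ACGTG was found, on either strand, in 6 of the 16 RefSeq start windows of 9 members (all but Slc2a3), from 5 genes, and in 19.6% of all 32851 windows of 300 bases. GCGTG was found in 8 of the 16 windows, from 5 genes, and in 32.4% of all windows, and CACGTG in 1 of 16 and in 7.15% of all. The windows of a gene overlap or lie close together, so they are not independent. Of the 9 members with windows, all but Tpi1 held ACGTG or GCGTG, so these letters do not set Hk2 or Pdk1 apart. A match is a description of these letters and not a site.

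**Figure D4:**
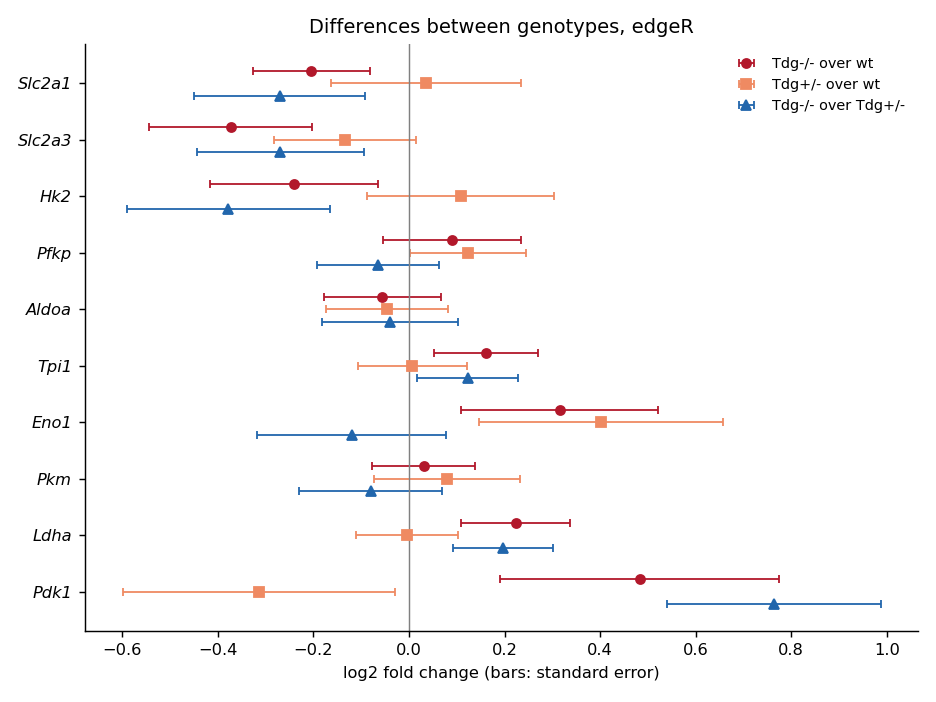
Log2 fold change (x axis) of each gene (y axis) in Tdg-/- over wt, Tdg+/- over wt and Tdg-/- over Tdg+/-; bars are standard errors from edgeR's test. The largest value is that of Pdk1 in Tdg-/- over Tdg+/-, at 0.76, and none passed an adjusted p under 0.05.

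Leaving out Tdg-/- line 1 changed the calls for 3 members. Without it, Slc2a3 had a log2 fold change of -0.52 (adjusted p = 0.0282) and Hk2 of -0.41 (adjusted p = 0.0425) in Tdg-/- over wt by edgeR, and 2 of 10 members were called, both lower. Against Tdg+/- lines, again without that line, Slc2a3 was at -0.42 (adjusted p = 0.0299), Hk2 at -0.55 (adjusted p = 0.0369) and Pdk1 at 0.92 (adjusted p = 0.00403) by edgeR, so 3 of 10 were called. Without that line 22.1% of all genes passed in Tdg-/- over wt and 40.6% in Tdg-/- over Tdg+/-, so neither member count is above its background. Leaving out any other single line gave 0 members called in each comparison. For these 3 genes, in CPM, Tdg-/- line 1 sits with the other genotypes and Tdg-/- lines 2 to 4 outside or at the edge of them. The cause of the split among Tdg-/- lines was not tested, and with bulk RNA fewer cells of a type and less RNA per cell cannot be told apart.

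Single lines stood out across several members. Tdg+/- line 3 was the highest of all lines for Slc2a1, Hk2, Eno1 and Pkm and above the mean of the 10 lines for 9 of 10 members, with a mean deviation of 0.25 on the log2 scale. Tdg+/- line 1 was the lowest for Slc2a1, Aldoa and Pkm and below the mean for 9 of 10, with a mean deviation of -0.24. These opposite lines are of the same genotype. Of the wt lines, line 2 was above the mean for all 10 members (mean deviation 0.17), and line 3 was the lowest for Tpi1, Eno1 and Ldha. The members together summed to 9249, 8655, 8708 and 8143 CPM in Tdg-/- lines, 7497, 8929 and 10694 CPM in Tdg+/- lines, and 8638, 9582 and 7797 CPM in wt lines. The sums of the Tdg-/- lines lay within the range of the Tdg+/- lines. Feeder fibroblast markers summed to 51.9 CPM in Tdg+/- line 3, the highest of all lines, 34.4 CPM in Tdg+/- line 1 and 47.7 CPM in wt line 2, and their part in the members' levels was not tested.

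**Figure D5:**
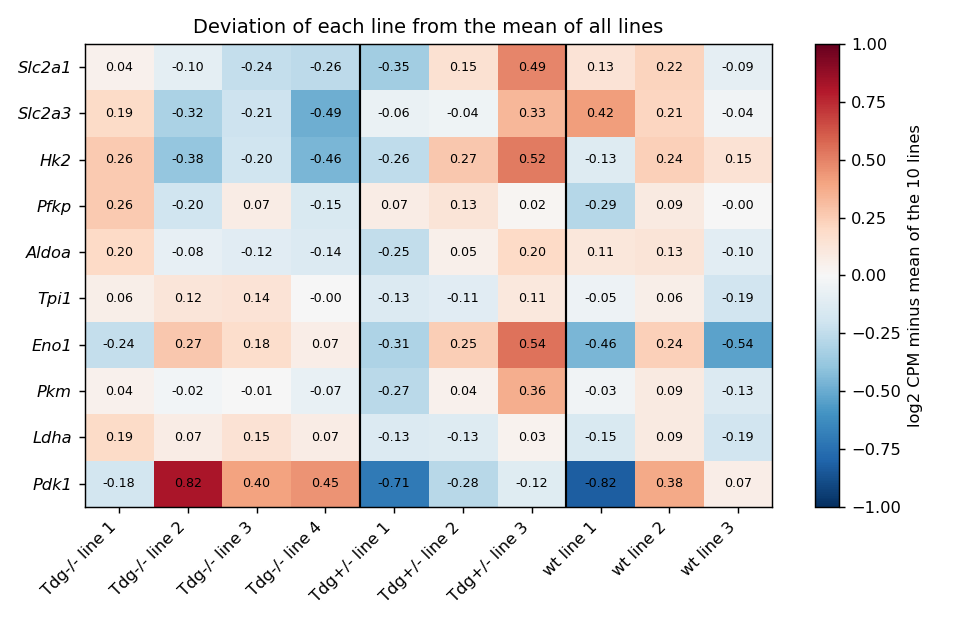
Log2 CPM of each gene (rows) in each line (columns) minus its mean over the 10 lines, on a colour scale from -1 to 1. Tdg+/- line 3 is above the mean for 9 of 10 genes, Tdg+/- line 1 below it for 9 of 10, and Pdk1 has the widest range, -0.82 in wt line 1 to 0.82 in Tdg-/- line 2.

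The members differed in their spread between lines of a genotype. The SD of log2 CPM within genotypes was 0.10 for Ldha and 0.11 for Tpi1, below the median of 0.18 over 3646 genes of at least 50 CPM (percentiles 10.2 and 10.9). Aldoa, Pfkp and Pkm were near that median, at 0.17, 0.18 and 0.18. Slc2a3 and Slc2a1 had 0.25 and 0.26, Hk2 0.32, Eno1 0.36 and Pdk1 0.46, the last at percentile 98.6. The genes with the largest differences between genotypes in Tdg-/- over Tdg+/-, Pdk1 and Hk2, were thus also among those with the largest spread within a genotype.

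On the scale of TPM, which allows for transcript length, the order of levels over the 10 lines was Pkm (1802 ± 299.9 TPM, mean ± SD), Eno1 (1454 ± 355), Ldha (1236 ± 177), Aldoa (978 ± 195), Slc2a3 (394 ± 109), Tpi1 (303 ± 28.3), Pfkp (67.9 ± 13.6), Slc2a1 (50.7 ± 11.7), Pdk1 (46.1 ± 12.2) and Hk2 (38.4 ± 12.05). By mean TPM, Pkm, Eno1 and Ldha of the later steps were the most abundant, and Hk2 was the least. By CPM, Aldoa ranked 2 and Eno1 5, and Pdk1 was the least. The rank of Eno1 in TPM rested largely on the transcript Eno1-208. It took 11.8% of Eno1 reads on average, but 865 of 1254 TPM in wt line 1. Ldha, Aldoa, Slc2a3 and Tpi1 were each above the next gene in all 10 lines. Pkm was above Eno1 in 9 lines, Eno1 above Ldha in 7, Slc2a1 above Pdk1 in 6 and Pdk1 above Hk2 in 4, so Slc2a1, Pdk1 and Hk2 had no fixed order.

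The reads of some members lay mostly in transcripts that the GENCODE annotation (GRCm38) does not give as protein coding. For Tpi1 the retained-intron transcript Tpi1-204 took 74.4% of reads on average, for Slc2a1 the nonsense-mediated decay transcript Slc2a1-204 took 51.1%, and for Pdk1 the processed transcript Pdk1-208 took 47.8%. The coding transcript Pdk1-201 took 38.6%. Counted over coding transcripts alone, Pdk1 was at 36.8, 51.5, 51.8 and 46.7 CPM in Tdg-/- lines, 23.0, 26.5 and 30.7 CPM in Tdg+/- lines, and 21.7, 51.9 and 51.8 CPM in wt lines. By that count every Tdg-/- line was above every Tdg+/- line, and wt lines 2 and 3 were level with Tdg-/- lines 2 and 3. The count was not tested, and its share over all genes was not taken. For counts summed per gene, Tdg-/- lines were all above Tdg+/- lines for 11.4% of all genes. Over coding transcripts alone, these genotypes overlapped for Slc2a1, Slc2a3 and Tpi1. For Slc2a3 the share not coding was 15.03 ± 2.38% in Tdg-/- lines (SD, n = 4), 9.71 ± 2.32% in Tdg+/- lines (SD, n = 3) and 9.86 ± 0.261% in wt lines (SD, n = 3). The difference of Tdg-/- from wt lines was 5.17 percentage points (exact permutation p = 0.0571, adjusted p 0.18 over the 9 share tests). Division of reads between transcripts is Salmon's estimate.

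Of the 19 other enzymes of glycolysis listed, 15 were tested in Tdg-/- over Tdg+/-, of which 1 was called higher and 2 lower, with a median log2 fold change of -0.17 (all genes -0.017). Of all genes, 3.52% were called higher and 5.51% lower in that comparison. Pgk1, phosphoglycerate kinase, rose (log2 fold change 0.50, adjusted p = 0.0398 by edgeR), with 1330, 1720, 1592 and 1493 CPM in Tdg-/- lines, 1056, 1076 and 1131 CPM in Tdg+/- lines, and 1250, 1306 and 1162 CPM in wt lines. Every Tdg-/- line was above every other line. Gapdh, the dehydrogenase of the middle of the pathway, fell (log2 fold change -0.69, adjusted p = 0.0414 by edgeR), with 1311, 1057, 948 and 985 CPM in Tdg-/- lines, 1405, 1655 and 2143 CPM in Tdg+/- lines, and 1499, 1521 and 1348 CPM in wt lines. Gapdh has 95 copies by the same measure, holding 9.29% to 28.9% of the summed reads, and with them added its adjusted p was 0.0520 (log2 fold change -0.52, edgeR). Pfkm, the muscle phosphofructokinase, named here after its values were seen, fell too (log2 fold change -0.52, adjusted p = 0.0270 by edgeR), with 36.4 to 39.5 CPM in Tdg-/- lines, 50.5 to 57.9 CPM in Tdg+/- lines and 40.3 to 45.3 CPM in wt lines. With a transcript length offset the calls of Pgk1 (adjusted p = 0.0597) and Gapdh (adjusted p = 0.0732) were lost by edgeR, and that of Pfkm was kept. The Tdg+/- lines of Pfkm were above all Tdg-/- and all wt lines. Its log2 fold change in Tdg-/- over wt was -0.14 (adjusted p = 0.448 by edgeR). No listed enzyme was called in Tdg-/- over wt (14 tested), Tdg+/- over wt (15) or the trend (15). The trend per allele lost was 0.32 for Eno3 (unadjusted p = 0.00316, adjusted p = 0.337 by edgeR) and 0.29 for Aldoc. Both lie on chromosome 11, whose genes had a median trend of -0.0013. The trend was 0.17 for Pgk1 and 0.069 for Pgam1, and -0.24 for Gapdh, -0.16 for Hk1, -0.082 for Pfkl, -0.059 for Gpi1 and -0.044 for Ldhb.

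With all lines in the fits, transporters and regulators beside the members gave no call. Of 13 other genes of sugar and lactate transport 7 were tested, and 0 passed by edgeR in any comparison (at an unadjusted p under 0.05, 3 higher in Tdg+/- over wt and 2 lower in Tdg-/- over Tdg+/-). Of all genes, 17.0% in Tdg+/- over wt and 35.2% in Tdg-/- over Tdg+/- were below that unadjusted threshold. The unadjusted counts of the next 2 lists are to be read against the same 35.2%. The trends were 0.20 for Slc2a5, 0.13 for Slc2a4 and -0.060 for the lactate carrier gene Slc16a1. Of 17 flux regulators and pyruvate dehydrogenase genes, all tested, 0 passed by edgeR (unadjusted, 4 higher and 2 lower in Tdg-/- over Tdg+/-), and the mitochondrial pyruvate carrier genes Mpc1 and Mpc2 had trends of 0.20 each and Pfkfb3 of -0.24 (adjusted p = 0.337, 0.344 and 0.349 by edgeR). The trend of Pfkfb3 turned to 0.20 with a transcript length offset. Of 7 pentose phosphate pathway genes, all tested, 0 passed by edgeR (unadjusted, 1 higher and 2 lower in Tdg-/- over Tdg+/-), with trends of -0.071 for G6pdx, 0.070 for Pgls and -0.063 for Tkt.

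Hypoxia-induced genes outside glycolysis and the factors above them were listed because many members are their targets. Of 20 hypoxia-induced genes 19 were tested in Tdg-/- over Tdg+/-, with 1 called higher and 1 lower and a median log2 fold change of 0.12 (all genes -0.017). Of all genes, 3.52% were called higher and 5.51% lower in that comparison, so these counts are near the background. Bnip3, a mitophagy receptor, rose (log2 fold change 1.02, adjusted p = 0.0330 by edgeR), with 76.6, 144, 105.5 and 98.0 CPM in Tdg-/- lines, 65.4, 40.8 and 50.9 CPM in Tdg+/- lines, and 66.2, 80.6 and 93.3 CPM in wt lines. Like Pdk1, it was lowest among Tdg-/- lines in line 1. Jmjd6, a dioxygenase gene on chromosome 11, was called lower (log2 fold change -0.42, adjusted p = 0.0499 by edgeR), near the median of -0.38 over the chromosome 11 genes in that comparison. Its call was lost by edgeR with other size factors (RLE), with no filter, with the length offset and with all 10 lines in the fit (adjusted p = 0.0522 to 0.0725). Of 13 HIF and MYC factors 12 were tested, with 2 called lower in Tdg-/- over Tdg+/-, against the same 5.51% of all genes. Epas1, which encodes an alpha subunit of the hypoxia-inducible factors, fell (log2 fold change -0.85, adjusted p = 0.0258 by edgeR), with 14.4, 11.99, 9.81 and 12.4 CPM in Tdg-/- lines, 18.5, 22.3 and 24.7 CPM in Tdg+/- lines, and 13.9, 14.8 and 14.95 CPM in wt lines, and its call was lost with the length offset (adjusted p = 0.0566 by edgeR). Hif1an, an asparagine hydroxylase that inhibits HIF, fell as well (log2 fold change -0.60, adjusted p = 0.0323 by edgeR), with 21.5 to 29.2 CPM in Tdg-/- lines, 35.4 to 39.0 CPM in Tdg+/- lines and 26.2 to 31.6 CPM in wt lines. For Epas1 and Hif1an the Tdg+/- lines were the ones apart, above all Tdg-/- and all wt lines. For Bnip3 the Tdg+/- lines were below all Tdg-/- and all wt lines. The log2 fold change of Bnip3 in Tdg-/- over wt was 0.43 (adjusted p = 0.333 by edgeR). Bnip3, Jmjd6, Epas1 and Hif1an were named after their values were seen. No gene of these lists passed by edgeR in the other comparisons, and the trends were -0.26 for Ero1a, 0.19 for Higd1a and -0.14 for P4ha1 among hypoxia-induced genes, and -0.28 for Mlxip, 0.12 for Vhl and -0.11 for Hif1a among the factors. The 7 calls among the listed genes in Tdg-/- over Tdg+/- were lost when Tdg+/- line 2 or 3 or Tdg-/- line 2, 3 or 4 was left out (adjusted p = 0.0678 to 0.163 by edgeR).

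Without Tdg-/- line 1, calls in the other lists became more frequent too. The genes given here as called were named after their values were seen. Among the other enzymes of glycolysis in Tdg-/- over wt, 4 were then called higher (Aldoc, Eno3, Pgam2 and Pgk1) and 2 lower (Gapdh and Hk1) of 14 tested, where 11.7% of all genes were called higher and 10.5% lower. Of these, Aldoc, Eno3 and Pgam2 lie on chromosome 11. With all lines in the fit, the median log2 fold change over the chromosome 11 genes was 0.063 in Tdg-/- over wt. Against Tdg+/- lines 2 were called higher (Bpgm and Pgk1) and 4 lower (Gapdh, Hk1, Ldhc and Pfkm) of 15, where 18.4% of all genes were called higher and 22.2% lower. Hk1, the constitutive hexokinase, had 74.5, 38.1, 49.8 and 40.9 CPM in Tdg-/- lines, 69.7, 65.2 and 69.5 CPM in Tdg+/- lines, and 72.6, 58.4 and 57.1 CPM in wt lines. As for Hk2, Tdg-/- line 1 was above the wt lines and Tdg-/- lines 2 to 4 below them. Of the hypoxia-induced genes 5 were called higher (Bnip3, Bnip3l, Fam162a, Higd1a and Kdm3a) and 2 lower (Jmjd6 and Mxi1) of 19 in Tdg-/- over Tdg+/- without line 1, and 2 higher (Bnip3l and Higd1a) and 2 lower (Ero1a and Vegfa) of 18 over wt. Of the HIF and MYC factors 4 were called lower (Epas1, Hif1an, Mlxip and Mycn) of 12 over Tdg+/-, and 1 (Mlxip) over wt. Of the 17 flux regulators and pyruvate dehydrogenase genes 4 were called higher (Dld, Mpc2, Pdhb and Tigar) and 2 lower (Dlat and Pfkfb3) over Tdg+/-, and 4 higher (Dld, Mpc1, Mpc2 and Pfkfb1) and 1 lower (Dlat) over wt. Sugar and lactate transport gave 1 lower (Slc2a8) of 7 over Tdg+/- and the pentose phosphate pathway 2 lower (G6pdx and Tkt) of 7, and neither gave a call over wt.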

How the data were processed

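Libraries were stranded, from total RNA with ribosomal RNA removed, and read from 1 end. Per transcript and line, the authors deposited expected counts (estimated by Salmon 0.8.1 on GRCm39, from the submitters' processing notes), which are not normalized and need not be whole, and TPM. The deposited TPM were summed per gene and used to compare levels between genes and, for Slc2a1, Slc2a3, Hk2, Ldha and Pdk1, between lines. The deposited expected counts were summed per gene and rounded. Gene names, chromosomes and transcript types came from GENCODE (GRCm38), which paired 115153 of 116357 transcripts. Unpaired reads (0.472% to 0.499% per line) were left out. Start windows came from RefSeq (GRCm38.p6) and Pkm exons from GENCODE transcripts.

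Groups follow the submitters' genotype label. The fits used edgeR 4.0.16 (quasi-likelihood, TMM) in R 4.3.3, without covariates, on genes reaching 20 reads in any line of the fit: Tdg-/- over wt (13926 genes), Tdg+/- over wt (13880), Tdg-/- over Tdg+/- (13962) and a trend over Tdg alleles lost (14105). Calls needed an adjusted p under 0.05 (Benjamini-Hochberg over the genes of the fit), and SE was taken from the fold change and edgeR's F. Between lines of a genotype the chi-square per gene was 18.9 to 142, so each was counted as a separate sample. Copies were genes with at least 20% of their own 31-base words in a gene's transcripts. Alternatives were other scalings, DESeq2 1.42.0, filters, a transcript length offset, a replicate block, all 10 lines in one fit, 3 surrogate variables (sva 3.50.0, the study's own design for Tdg+/- over wt), each line left out and, chosen after seeing the data, copies added to their gene. The fits were tested on simulated data. Members and lists were chosen with earlier results of these data known. All members are described. Of each other list, the 3 genes with the smallest trend p are named, with every other glycolysis enzyme at a mean of at least 50 CPM; genes named beyond this rule are marked in the text as picked once values were known.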

Additional observations from a re-analysis of the deposited data

Results flagged for a closer look

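Aldoa, aldolase A, was marked for a closer look because 1 of the 4 Tdg-/- lines lay far from the others. Tdg-/- line 1 had 1730 CPM and the next line 1424 CPM, a gap of 0.843 of the range over the 4 lines, above Dixon's critical value. The 10 members were checked in this way, and chance marks about 1 in 20 groups. Tdg-/- line 1 was also the highest of the 4 for Slc2a1, Slc2a3, Hk2, Pfkp, Pkm and Ldha, with gaps under the critical value.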

How the results depend on the processing

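Of 360 member values under alternatives other than leaving out a line, 338 kept direction and side of the threshold, 3 (Pdk1 in Tdg-/- over Tdg+/-) moved past it and 19 changed sign, none above 0.104 in size. Members called in Tdg-/- over Tdg+/- numbered 1 under DESeq2, with no filter and with a mean of at least 1 CPM, fits that called 3346, 1546 and 1636 of all genes. Leaving out a line gave 0 to 2 members called in Tdg-/- over wt and 0 to 3 in Tdg-/- over Tdg+/-.
With a transcript length offset the sign changed in Tdg-/- over wt for Aldoa (0.061) and Pkm (-0.037), in Tdg+/- over wt for Slc2a1 (-0.020), Slc2a3 (0.036), Aldoa (0.10) and Pkm (-0.058), in Tdg-/- over Tdg+/- for Eno1 (0.050) and Pkm (0.0053), and in the trend for Aldoa (0.027), Pkm (-0.018), Pfkfb3 (0.20), G6pdx (0.0034) and Pgls (-0.0027). Ldha in Tdg+/- over wt was 0.012 with no filter, 0.031 with scaling without chromosomes 11 and 16, 0.0053 with all 10 lines and 0.0039 with 3 surrogate variables, under which Slc2a1 was -0.048. With copies added, Eno1 was -0.067 in Tdg+/- over wt and 0.082 in Tdg-/- over Tdg+/-, and the trend of Pkm was -0.00032; with scaling without chromosomes 11 and 16 it was -0.0048. The cause was not tested. By CPM in place of TPM, Eno1 ranked 5 among the members in place of 2, Aldoa 2 in place of 4, Slc2a3 4 in place of 5, Pdk1 10 in place of 9 and Hk2 9 in place of 10.
Leaving out a line gave, in Tdg-/- over wt, -0.014 to 0.17 for Pfkp and -0.024 to 0.085 for Pkm. For Tdg+/- over wt it gave -0.18 to 0.24 for Slc2a1, -0.073 to 0.31 for Hk2, -0.15 to 0.082 for Aldoa, -0.074 to 0.067 for Tpi1, -0.095 to 0.24 for Pkm and -0.061 to 0.088 for Ldha. For Tdg-/- over Tdg+/- it gave -0.15 to 0.063 for Aldoa, -0.32 to 0.086 for Eno1 and -0.22 to 0.094 for Pkm. In the trend it gave -0.023 to 0.065 for Pfkp, -0.029 to 0.020 for Pkm, -0.093 to 0.045 for Ldhb and -0.11 to 0.014 for Slc16a1.
Counts over all genes moved more. For Tdg-/- over wt 10 genes passed, 93 with DESeq2, 19 with no filter, 5 with the replicate block and 3 to 3077 with a line left out (3077 without Tdg-/- line 1). For Tdg+/- over wt 4 passed, 744 with DESeq2, 269 with no filter, 0 with the length offset, 33 with the block, 23 with all 10 lines, 3713 with 3 surrogate variables (6 lines, 1 residual degree of freedom) and 0 to 207 with a line left out. For Tdg-/- over Tdg+/- 1261 passed, 3346 with DESeq2, 463 with the length offset, 6 with the block and 12 to 5660 with a line left out (5660 without Tdg-/- line 1). In the trend 5 passed, 51 with DESeq2, 12 with no filter and 2 to 11 with a line left out. Same-numbered lines correlated at -0.21 to 0.19, so the numbers are not read as pairs; with the replicate block 0 members were called in each comparison, and the 7 listed genes called in Tdg-/- over Tdg+/- had adjusted p = 0.153 to 0.195 by edgeR.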

Other observations

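Over the 10 lines, the mean deviation of the 10 members from their own means was compared with each of 9153 other protein-coding genes. The 5 genes most like it by Pearson's r, as a description over lines that share libraries and depth, were Fem1a (r = 0.951), Tex261 (0.947), Ctnnb1 (0.933), Epha2 (0.930) and Gpat4 (0.922). Ctnnb1 encodes beta-catenin and Epha2 an ephrin receptor. Epha2 had 71.9, 81.5, 73.0 and 69.0 CPM in Tdg-/- lines, 51.1, 80.9 and 129 CPM in Tdg+/- lines, and 57.5, 92.0 and 68.2 CPM in wt lines. Like that mean deviation, it was lowest in Tdg+/- line 1 and highest in Tdg+/- line 3. As Epha2 was picked by its likeness to the mean deviation, this is no separate result.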
